A study of Homo sapiens with 24 samples.

Results

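The nuclear genes of respiratory complex I were followed in 4 human cancer cell lines treated with Ocoxin, a nutritional supplement mixture. Genes were taken as members when they code for protein and carry a symbol starting with NDUFA, NDUFB, NDUFC, NDUFS, NDUFV or NDUFAB followed by a number, which leaves out the NDUFAF assembly factors. This gave 40 of the 58051 genes in the count tables, of which 37 code for subunits of complex I. The other 3 match by symbol only: NDUFA4, now placed in complex IV, its paralog NDUFA4L2, and NDUFC2-KCTD14, a readthrough gene whose exonic bases all lie in other genes and which held 0 counts in all 24 libraries.

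RNA sequencing libraries were made from SW620 (colorectal adenocarcinoma, COAD), BxPC-3 (pancreatic adenocarcinoma, PAAD), LNCaP (prostate adenocarcinoma, PRAD) and HCC-70 (triple-negative breast cancer, TNBC) cells, with 3 control and 3 Ocoxin libraries per line. Ocoxin was given for 48 h in low-serum medium. The dilution was 50-fold in PRAD, 500-fold in PAAD and 700-fold in both TNBC and COAD, so the lines differ in dose as well as in origin. The study took these as each line's median inhibitory dose. Control libraries are marked as controls by their titles, and the labels give them the dilution of their line as well. Each cancer type is represented by 1 cell line, with no engineered change named in the labels, and RNA came from the cells that were still attached. Nothing in the labels says that replicates were separate cultures, so p-values measure the spread between these libraries, which may be technical.

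Complex I is the entry point of electrons from NADH into the mitochondrial respiratory chain. It passes them through a flavin and a row of iron-sulfur clusters in its matrix arm to ubiquinone, and its membrane arm pumps protons. The core subunits of the matrix arm and all accessory subunits are made from nuclear genes, whereas the proton-pumping core subunits of the membrane arm are encoded in the mitochondrial genome. The 37 mitochondrial genes held 0 counts in every library, so the nuclear part of the complex is what these data describe: 7 core subunits and 30 accessory subunits.

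The libraries held 9063968 to 9520969 counts in PRAD and 25160757 to 39009959 counts in the other lines. Control libraries held counts on most markers of their origin, but the markers did not set every line apart. VIL1 reached 519.6 to 522.6 CPM (counts scaled by TMM to a common library size) in COAD. KLK3 reached 396.6 to 410.0 CPM in PRAD, and KRT5 1456 to 1655 CPM in TNBC. All 3 TNBC markers were higher in PAAD: KRT5 (2925 to 3297 CPM), KRT17 (2143 to 2431 CPM) and EGFR (548.7 to 632.6 CPM). Of the PAAD markers, KRT7, KRT17 and S100A2 were higher in PAAD than in TNBC, whereas KRT19 and MUC1 were lower. CDX1 held at most 1 count per library in COAD. In TNBC, PGR held 0 counts, ESR1 reached 5.46 to 7.46 CPM and ERBB2 239.3 to 257.5 CPM. PRAD reads were counted with other options and are capped at about 1 count per exonic base, at most 0.995 for any gene, so short abundant members sit near that cap there: NDUFB7 reached 0.736 and NDUFS5 0.735 counts per base, and 9 members reached 0.3.

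The upstream sequences of 4 members that fell in TNBC are shown. They were picked for a whole NRF1 or ETS match in the printed bases. The largest fall among fallen members without such a match was added. The choice therefore does not show how common matches are among the members that fell. Each stretch holds the 120 bases before the RefSeq start (GRCh38.p14), read 5′ to 3′ on the strand of the gene, and capitals mark an NRF1 match (GCGCA and GCGC with any base between them, on either strand) or an ETS match (CCGGAAG, or CTTCCGG on the other strand). NDUFA1 (chrX:119871712-119871831, plus strand) and NDUFB7 (chr19:14572067-14572186, minus strand) hold an ETS match. NDUFB4 (chr3:120596216-120596335, plus strand) holds an NRF1 match, and NDUFB3 (chr2:201071881-201072000, plus strand) neither. The NDUFA1 and NDUFB3 stretches lie within the gene span used for counting, and the NDUFB4 stretch does in part. Annotated exons cover 22 bases of the stretch of NDUFA1 and 8 of that of NDUFB4.
NDUFA1: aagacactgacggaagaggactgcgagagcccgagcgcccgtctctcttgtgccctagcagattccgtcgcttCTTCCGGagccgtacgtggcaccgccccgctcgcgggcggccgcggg
NDUFB7: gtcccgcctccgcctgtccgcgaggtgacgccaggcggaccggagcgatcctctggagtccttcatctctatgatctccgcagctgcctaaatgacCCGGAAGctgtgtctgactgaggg
NDUFB4: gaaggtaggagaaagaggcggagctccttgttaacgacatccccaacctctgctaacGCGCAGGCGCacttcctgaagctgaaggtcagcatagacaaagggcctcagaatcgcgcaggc
NDUFB3: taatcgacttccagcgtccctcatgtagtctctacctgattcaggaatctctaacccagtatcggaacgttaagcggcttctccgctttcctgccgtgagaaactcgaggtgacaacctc

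RefSeq windows of 250 bases before to 50 after the start were at hand for 33 of the 40 members. NRF1 and the ETS factor GABP are known regulators of nuclear genes for mitochondrial proteins. On both strands, an NRF1 match stood in 6 of the 33 windows (18.2%, against 5.79% of 35097 windows) and an ETS match in 5 (15.2%, against 10.3%). A YY1 match (AAGATGG) stood in 9 windows (27.3%, against 5.84%), and an antioxidant response element match (TGACNNNGC) also in 9 (27.3%, against 13.3%). A CCAAT box (CCAAT) stood in 8 windows (24.2%, against 34.6%), an E-box (CACGTG) in 3 (9.09%, against 7.25%), an ATF4 match (TGATGNAA) in 2 (6.06%, against 3.62%) and a CRE match (TGAC followed by GTCA) in 2 (6.06%, against 1.85%). Of the 12 members with a window that fell in TNBC, 2 held an NRF1 match (NDUFA8 and NDUFB4), 2 an ETS match (NDUFA1 and NDUFB7) and 1 a YY1 match (NDUFA6), whereas of 18 other tested members 4 held NRF1, 3 ETS and 7 YY1. ETS and YY1 letters can overlap, and a match describes letters only, not binding.

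In TNBC, 15 of the 37 members tested were downregulated by Ocoxin and 0 were upregulated (edgeR's quasi-likelihood test, adjusted p under 0.05). Among the 35 tested subunits of complex I, 14 were lower. Over all 17352 genes tested in this line, 11.3% were called lower and 9.65% higher, and 16.7% of those with a mean of at least 10 CPM were lower. The median log2 fold change of the members was -0.10, against 0.01 over all genes tested. The falls were small, between -0.36 and -0.13 on the log2 scale, and 14 of the 15 genes code for accessory subunits, 11 of them in the membrane arm, while the other is NDUFA4. At an unadjusted p under 0.05, 15 members were lower and 1 was higher, and DESeq2 called 15 (23.1% of all genes). In bulk RNA, fewer cells of a type and less RNA per cell cannot be told apart.

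The 6 core subunits tested gave no call in TNBC with the standard fit. NDUFV1, which binds NADH and the flavin, stood at 103.8, 106.2 and 94.2 CPM in controls and at 114.6, 113.4 and 103.3 CPM with Ocoxin. Its groups overlapped, and the log2 fold change was 0.12 (SE 0.0550; adjusted p = 0.136, edgeR). With the replicate number as a block NDUFV1 was called higher (adjusted p = 0.00609), a fit that calls 33.9% of all genes. NDUFS1, which carries iron-sulfur clusters of the same module, had a log2 fold change of -0.04 with a 95% interval from -0.12 to 0.03. It was called lower after removal of a trend with length and GC content (log2 fold change -0.12; adjusted p = 0.0243, edgeR). NDUFV2, another iron-sulfur subunit, held only 6 to 25 counts per library in TNBC and was not tested.

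Of the quinone-binding part, NDUFS3 stood at 50.97, 51.13 and 50.58 CPM in controls and at 49.87, 48.15 and 45.8 CPM with Ocoxin, with no overlap between the groups (log2 fold change -0.09; adjusted p = 0.251, edgeR). NDUFS8 and NDUFS7 had log2 fold changes of -0.07 and -0.01. The median over the 6 core subunits tested was -0.04, against -0.16 over the 29 accessory subunits tested, of which 14 fell. This difference between core and accessory subunits was not tested.

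Among the accessory subunits of the matrix arm, 2 of 8 tested fell in TNBC. NDUFA6, which holds the acyl carrier subunit at the arm, stood at 42.3, 42.5 and 42.9 CPM in controls and at 35.9, 35.0 and 33.2 CPM with Ocoxin (log2 fold change -0.29, SE 0.0528; adjusted p = 0.00210, edgeR). NDUFS6, a zinc-binding subunit needed late in assembly, stood at 101.1, 105.4 and 102.4 CPM in controls and at 86.5, 84.0 and 82.5 CPM with Ocoxin (log2 fold change -0.29, SE 0.0419; adjusted p = 0.000523, edgeR). Every Ocoxin library lay below every control library for both genes. NDUFA2, NDUFA5, NDUFA9, NDUFA12, NDUFS4 and NDUFV3 did not pass the test, with log2 fold changes from -0.20 (NDUFA9) to 0.07 (NDUFV3), and NDUFA7 held 1 to 16 counts per library and was not tested. NDUFAB1, the mitochondrial acyl carrier protein, fell from 75.5, 78.2 and 74.0 CPM to 65.8, 67.7 and 65.6 CPM (log2 fold change -0.19; adjusted p = 0.00879, edgeR).

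In the proximal part of the membrane arm, 3 of 9 members fell. NDUFA1, a single-pass subunit needed for assembly of the membrane arm (ENSG00000125356, chrX:119871487-119876662, plus strand), showed the largest fall of the members in TNBC. It stood at 67.2, 67.0 and 71.1 CPM in controls and at 52.7, 53.2 and 54.4 CPM with Ocoxin, with no overlap. This was a fall of 21.9% (log2 fold change -0.36, SE 0.0470; adjusted p = 0.000272, edgeR). Of its exonic bases, 44.5% are shared with RNF113A on the other strand, and counting ignored the strand.

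NDUFA8, a disulfide-bonded subunit on the intermembrane side, stood at 32.8, 36.8 and 35.3 CPM in controls and at 29.1, 29.5 and 29.6 CPM with Ocoxin (log2 fold change -0.25, SE 0.0590; adjusted p = 0.0101, edgeR). NDUFS5, of the same kind, fell from 109.6, 113.7 and 113.2 CPM to 96.6, 94.7 and 98.7 CPM (log2 fold change -0.21; adjusted p = 0.00282, edgeR). Neither gene had overlapping groups. The other 6 members of this group, NDUFA3, NDUFA10, NDUFA11, NDUFA13, NDUFC1 and NDUFC2, were not called, with log2 fold changes from -0.19 (NDUFC2) to 0.23 (NDUFA13, at 2.01 to 3.79 CPM). NDUFA10 had a value of -0.15 after trend removal and was then called lower (adjusted p = 0.0130, edgeR).

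The distal part of the membrane arm, made of the NDUFB subunits, held most of the falls: 8 of 11 members, with a median log2 fold change of -0.21. NDUFB3 (ENSG00000119013, chr2:201071433-201085750, plus strand), whose upstream sequence holds neither match, stood at 53.3, 52.5 and 50.7 CPM in controls and at 42.3, 40.0 and 41.8 CPM with Ocoxin. This was a fall of 20.7% with no overlap (log2 fold change -0.33, SE 0.0498; adjusted p = 0.000639, edgeR). NDUFB7, a disulfide-bonded intermembrane subunit, stood at 70.2, 81.2 and 69.3 CPM in controls and at 61.4, 66.0 and 56.0 CPM with Ocoxin (log2 fold change -0.27, SE 0.0731; adjusted p = 0.0243, edgeR). Its lowest control library was only slightly above its highest Ocoxin library.

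NDUFB2, NDUFB4, NDUFB1, NDUFB11, NDUFB6 and NDUFB5 fell by 0.23, 0.22, 0.22, 0.21, 0.16 and 0.13 on the log2 scale. NDUFB9 and NDUFB10 had log2 fold changes of -0.06 each and were not called, and NDUFB8, at 5.22 to 5.59 CPM, had a value of 0.01. Counted by arm, 11 of 20 membrane arm members fell, against 2 of 14 tested in the matrix arm. The difference between the arms, and the part of gene length in it, was not tested. NDUFA4, the complex IV subunit, fell by 0.19 (adjusted p = 0.00455, edgeR), whereas NDUFA4L2 had a log2 fold change of 0.23 (adjusted p = 0.178, edgeR) and was called higher only with the replicate block (adjusted p = 0.0492).

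**Figure D1:**
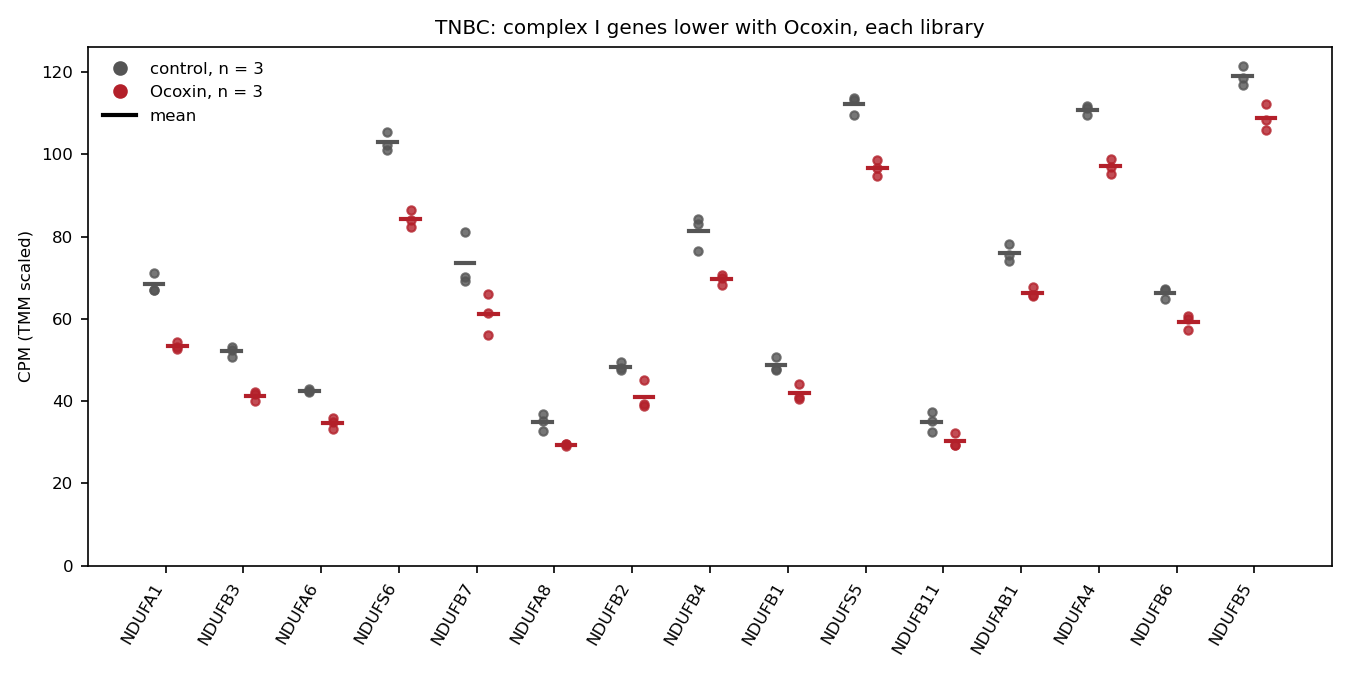
CPM of the 15 members called lower in TNBC, one column pair per gene, with 3 control libraries (grey) and 3 Ocoxin libraries (red) as points and the means as bars. In each gene all Ocoxin points lie below all control points, and the gap is narrowest in NDUFB11.

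Across the 37 tested members, 19 had every Ocoxin library below every control library, against 19.8% of all genes, and 0 had the opposite order (18.3%). An exact permutation test of 3 against 3 libraries cannot go below p = 0.1, so single members rest on the fit across all genes. NDUFA1, NDUFB3, NDUFA6, NDUFS6, NDUFS5, NDUFB4, NDUFAB1 and NDUFA4 kept their call when each of the 6 TNBC libraries was left out in turn. NDUFB5 lost it in all 6 of these fits (adjusted p 0.0571 to 0.164). NDUFB6 lost it in 5 (0.0544 to 0.0702), all but that without control 1, and NDUFB11 in those without control 2, control 3, Ocoxin 1 and Ocoxin 3 (0.0788 to 0.171).

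NDUFB2 lost its call without control 1 (adjusted p = 0.0538, edgeR) or Ocoxin 2 (adjusted p = 0.0812), and NDUFB7 without control 2 (adjusted p = 0.0913) or Ocoxin 1 (adjusted p = 0.0740). NDUFA8 lost it without control 2 (adjusted p = 0.0507, edgeR) and NDUFB1 without Ocoxin 2 (adjusted p = 0.0567). The number of members called was 10 to 13 over these fits.

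Members that fell in TNBC tended to be short. Of the 17 tested members with under 2000 exonic bases 11 fell (median log2 fold change -0.21), against 4 of the 20 longer ones (-0.07). Among all genes, 423 of 3841 shorter and 1546 of 13511 longer ones were called lower. The medians of these shorter and longer genes were -0.06 and 0.02. Spearman's rho between exonic length and log2 fold change was 0.542 over the 37 members, which share the same 6 libraries. After removal of a trend with length and GC content, 10 and 6 members were lower in these length classes (13.5% of all genes), and NDUFB11 lost its call (adjusted p = 0.0521, edgeR). Members without exonic bases shared with another gene fell in 9 of 18 cases, and those with shared bases in 6 of 19 tested. In PAAD the medians were -0.14 for shorter and -0.03 for longer members, and -0.06 and 0.01 for shorter and longer genes.

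In PAAD, 1 of 38 tested members was called lower, against 3.62% of the 17280 genes tested, and 0 were called higher (4.72%). NDUFS4, an accessory subunit of the matrix arm whose loss causes Leigh syndrome, stood at 51.1, 47.4 and 47.4 CPM in controls and at 41.0, 39.8 and 43.1 CPM with Ocoxin. The groups did not overlap, and NDUFS4 fell by 15.1% (log2 fold change -0.24, SE 0.0667; adjusted p = 0.0394, edgeR). Its call was lost without control 1 (adjusted p = 0.128, edgeR), control 2 (adjusted p = 0.0845), Ocoxin 1 (adjusted p = 0.135) or Ocoxin 2 (adjusted p = 0.194), and 2 members were called without control 3 or without Ocoxin 3. After removal of the length and GC trend NDUFS4 lost its call (adjusted p = 0.0591, edgeR), while NDUFA1 (adjusted p = 0.0243) and NDUFB10 (adjusted p = 0.0388) were called lower.

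Of the 38 members in PAAD, 31 had a negative log2 fold change, with a median of -0.09 against 0.00 over all genes, and all 11 distal membrane arm members were negative (median -0.14). At an unadjusted p under 0.05, 11 members were lower and 1 higher. In 12 members every Ocoxin library lay below every control library (13.9% of all genes). With the replicate number as a block, 11 members were called lower and 1 higher, against 23.1% of all genes in either direction. The 11 were NDUFA1, NDUFA4, NDUFA5, NDUFAB1, NDUFB1, NDUFB3, NDUFB4, NDUFB5, NDUFB6, NDUFS4 and NDUFS5.

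The core subunits gave no call in PAAD without the block. NDUFV1 stood at 202.9, 195.8 and 180.8 CPM in controls and at 216.0, 204.8 and 203.8 CPM with Ocoxin, with no overlap (log2 fold change 0.11; adjusted p = 0.284, edgeR). It was called higher with the replicate block (adjusted p = 0.0274). NDUFS1 and NDUFS8 had log2 fold changes of -0.02 each, NDUFS7 of 0.02, NDUFS3 of 0.01 and NDUFV2, at 13 to 26 counts per library, of 0.36, none of them called. NDUFA4L2 had a value of 0.87 (adjusted p = 0.194, edgeR) from 6 to 38 counts per library.

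In PRAD, 0 of 39 tested members were called by edgeR, against 2.98% of the 17070 genes tested, and 2 were lower and 1 higher at an unadjusted p under 0.05. The member furthest from no change was NDUFA4L2, a paralog of NDUFA4 known to be induced in low oxygen. NDUFA4L2 stood at 7.96, 12.1 and 10.1 CPM in controls and at 21.4, 17.3 and 14.8 CPM with Ocoxin, with no overlap (log2 fold change 0.83, SE 0.188; adjusted p = 0.0618, edgeR). It was called higher with the replicate block (adjusted p = 0.0417; 8.50% of all genes called), by DESeq2 (adjusted p = 0.00818; 3.31%) and after removal of the length and GC trend (adjusted p = 0.0181).

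NDUFA10, an accessory subunit of the proximal membrane arm, stood at 132.6, 130.9 and 131.7 CPM in PRAD controls and at 125.8, 121.0 and 125.2 CPM with Ocoxin (log2 fold change -0.09; adjusted p = 0.210, edgeR). The groups did not overlap, and NDUFA10 was called lower after trend removal (log2 fold change -0.19; adjusted p = 0.0212, edgeR). That fit called 2 members lower (10.5% of all genes) and moved the median of the members from -0.05 to -0.11 and that of all genes from 0.01 to -0.06. Over all genes it called 690 higher and 1785 lower, against 409 and 99 without it. The trend fit includes a constant for each library, so it changed the scaling as well. The parts of scaling and trend were not tested. The core subunits NDUFS1, NDUFS3, NDUFS7, NDUFS8, NDUFV1 and NDUFV2 had log2 fold changes from -0.08 (NDUFS3) to 0.04 (NDUFS1). In all, 31 of 39 members were negative (median -0.05), among them all 11 NDUFB subunits, and 13 members had every Ocoxin library below every control library (12.4% of all genes). Corrected for reads sharing a start, the median was -0.07 and 0 members were called.

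In COAD, 0 of 39 tested members were called by edgeR (2.55% of the 17659 genes tested) or by DESeq2 (3.80%), and at an unadjusted p under 0.05 there was 1 lower and 1 higher. The median was -0.00, with 18 positive and 21 negative members. The distal membrane arm, negative in all 11 members in PAAD and PRAD and in 10 of 11 in TNBC, was positive in 9 of 11 here (median 0.07). NDUFB3 stood at 48.1, 50.9 and 52.9 CPM in controls and at 52.1, 51.1 and 56.4 CPM with Ocoxin, with overlapping groups. All 7 core subunits had negative values, from -0.36 (NDUFV2, at 52 to 133 counts per library) to -0.00 (NDUFS3), with NDUFS1 at -0.04, NDUFV1 and NDUFS7 at -0.03, and NDUFS8 at -0.02. NDUFA7 had the lowest value, -0.98 (adjusted p = 0.263, edgeR), from 5 to 25 counts per library, and NDUFA4L2 the highest, 0.71 (adjusted p = 0.357, edgeR). Every Ocoxin library lay below every control library in 1 member (10.4% of all genes) and above in 3 (10.2%).

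**Figure D2:**
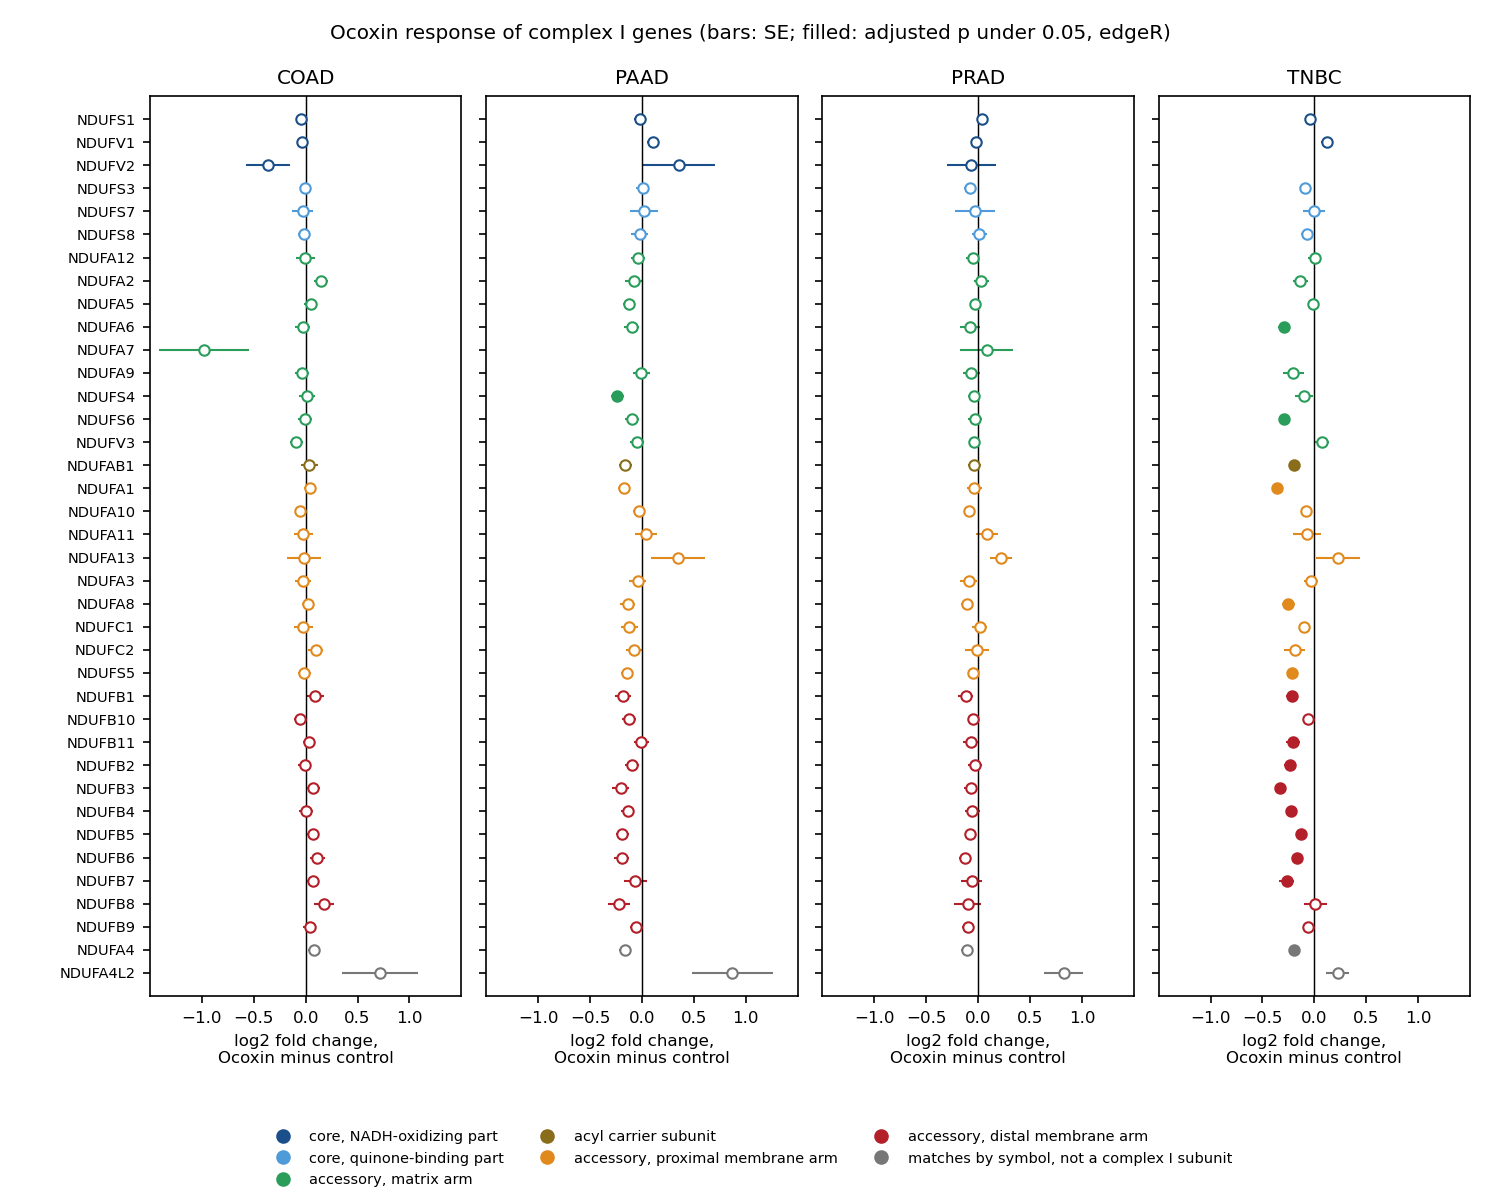
Log2 fold change (Ocoxin minus control, x axis) of the tested members named here in the 4 lines, with SE bars, colours for the role in the complex and filled points for an adjusted p under 0.05 in edgeR. Filled points stand in TNBC (15, all below 0) and in PAAD (NDUFS4), and the NDUFB subunits (red) lie left of 0 in PAAD and PRAD and mostly right of 0 in COAD.

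Levels were summed over the tested members, with NDUFA4 and NDUFA4L2 included. The sums were 2175, 2241 and 2215 CPM in TNBC controls and 2044, 2042 and 1999 CPM with Ocoxin, a fall of 8.23% without overlap. In PAAD the sums were 2309, 2178 and 2129 CPM against 2084, 2067 and 2099 CPM (-5.53%), and in PRAD 2025, 2069 and 2040 CPM against 2003, 1990 and 1994 CPM (-2.40%), both without overlap. The COAD sums of 2484, 2509 and 2647 CPM in controls and 2443, 2576 and 2664 CPM with Ocoxin overlapped (0.563%). These sums over chosen members were not tested.

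**Figure D3:**
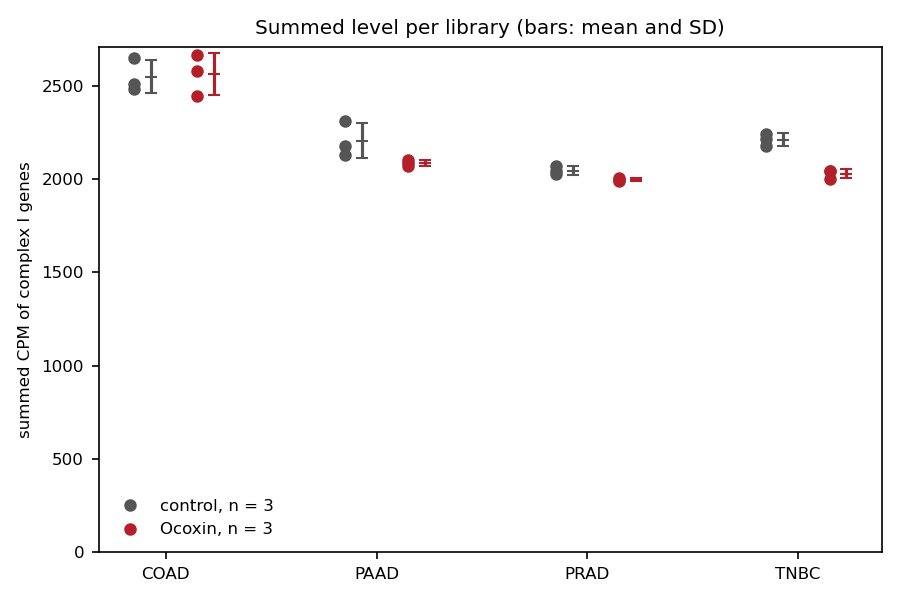
Summed CPM of the tested members in each library (points), with mean and SD (n = 3) for control (grey) and Ocoxin (red) in each line. The groups are apart in PAAD, PRAD and TNBC, with lower Ocoxin values, and overlap in COAD.

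Whether the response differed between lines was tested directly in a fit of all libraries. Between TNBC and COAD, the response of 6 members was lower in TNBC (4.10% of the 24631 genes tested were called in this direction) and that of 0 was higher. In COAD itself, 5 of these 6 had positive values. The difference in log2 response was -0.42 for NDUFB3 (SE 0.0921; adjusted p = 0.00386, edgeR), -0.41 for NDUFA1 (SE 0.0773; adjusted p = 0.000794) and -0.28 for NDUFA4 (SE 0.0663; adjusted p = 0.00630). These 3 calls held without any 1 of the 24 libraries.

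The other 3 calls between TNBC and COAD were NDUFS6 with -0.30 (adjusted p = 0.0357, edgeR), NDUFB6 with -0.29 (adjusted p = 0.0399) and NDUFA8 with -0.28 (adjusted p = 0.0496). NDUFA8 kept its call in 7 of the 24 fits that leave out a library, NDUFB6 in 14 and NDUFS6 in 15. The count of 6 became 3 without COAD control 1, COAD control 2, COAD Ocoxin 2, COAD Ocoxin 3, TNBC Ocoxin 2 or TNBC Ocoxin 3. It became 12 without COAD control 3 and 11 without COAD Ocoxin 1, and it was 16 with the replicate block (8.29% of all genes lower).

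Between PAAD and COAD, NDUFA4 alone differed, by -0.24 (SE 0.0666; adjusted p = 0.0331, edgeR; 1.66% of all genes in this direction). The call was lost without COAD control 1, COAD control 2, COAD Ocoxin 2, COAD Ocoxin 3, PAAD control 1 or PAAD Ocoxin 1 (adjusted p 0.0723 to 0.107). There were 2 to 4 called members without PAAD control 2, PAAD control 3, COAD control 3, COAD Ocoxin 1, PAAD Ocoxin 3 or PRAD control 1. With the replicate block 8 members were called (4.93% of all genes lower).

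No member was called between TNBC and PAAD (4.01% of all genes, either direction), TNBC and PRAD (3.59%), PAAD and PRAD (3.29%) or COAD and PRAD (0.832%). At an unadjusted p under 0.05 there were 4, 5, 1 and 3 members, and DESeq2 called 1 between TNBC and PRAD (5.01% of all genes lower). The difference for NDUFA1 was -0.19 between TNBC and PAAD (95% interval -0.35 to -0.04; adjusted p = 0.179, edgeR) and -0.30 between TNBC and PRAD (95% interval -0.49 to -0.12; adjusted p = 0.0683). With the replicate block NDUFA1 was called in both pairs (adjusted p = 0.0397 and 0.0310, where 6.60% and 4.38% of all genes were lower), and NDUFS6 in the former (adjusted p = 0.0299). Without COAD Ocoxin 3 there was 1 called member between TNBC and PRAD. Pairs with PRAD used its capped counts, and the correction for reads sharing a start was not applied to differences. Within PRAD that correction moved members by at most 0.08 on the log2 scale.

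Over the 35 subunits tested in every line, 23 had a negative log2 fold change in PAAD, PRAD and TNBC alike and 9 in all 4 lines. Across members, Pearson's r between the responses was 0.601 for PAAD and TNBC (n = 35; Spearman's rho 0.435), 0.520 for PAAD and PRAD (n = 36; rho 0.371) and 0.424 for PRAD and TNBC (n = 35; rho 0.219). COAD gave -0.657 with PAAD (n = 36; rho -0.598), -0.316 with PRAD (n = 37; rho -0.288) and -0.275 with TNBC (n = 35; rho -0.346). These values are descriptions, since members of a line share its libraries, and low-count members such as NDUFV2 and NDUFA13 enter them.

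The other respiratory complexes were set beside complex I. In TNBC, 27 of 38 nuclear genes of complexes II to V fell and 0 rose, against 11.3% and 9.65% of all genes. Their median log2 fold change was -0.20. By complex, 2 of 4 fell in complex II, 7 of 9 in complex III, 8 of 10 in complex IV and 10 of 15 in complex V. COX7A2, a small complex IV subunit, stood at 70.7, 76.5 and 68.6 CPM in controls and at 48.5, 51.0 and 48.0 CPM with Ocoxin (log2 fold change -0.55; adjusted p = 3.12e-05, edgeR), a larger fall than that of any complex I member in TNBC. UQCR11 of complex III fell by 0.36 and COX6B1 of complex IV by 0.33.

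In PAAD, 8 of 38 fell (median -0.12), against 3.62% of all genes, and 21 with the replicate block, against 1908 of 17280. The falls without the block were led by the complex V subunits ATP5F1C (-0.27) and ATP5PB (-0.25) and by COX7A2 (-0.25). In PRAD 0 were called (2.98% of all genes), 7 were lower after trend removal (10.5%), and 36 of 38 were negative. In COAD 0 were called (2.55%) and 25 of 38 were positive.

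**Figure D4:**
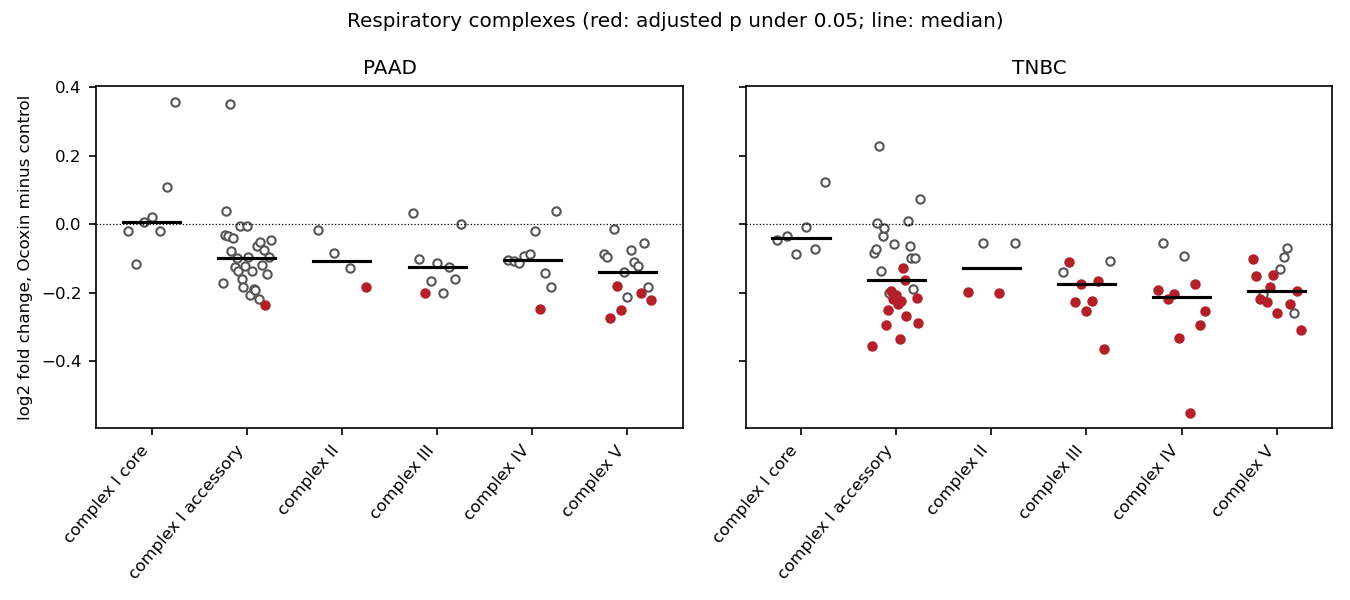
Log2 fold change (Ocoxin minus control, y axis) of single genes of complexes I to V in PAAD and TNBC, with red points for an adjusted p under 0.05 in edgeR and bars for medians. In TNBC the core subunits of complex I lie near 0 (median -0.04), above the accessory subunits (-0.16) and complexes II to V.

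Of 19 complex I assembly factors and related proteins, 3 fell in TNBC (NDUFAF3 by 0.23, TIMMDC1 by 0.13 and DMAC1 by 0.24). In TNBC 1 rose (NDUFAF6 by 0.21), and the median was 0.02. Over all genes tested, 11.3% were called lower and 9.65% higher in TNBC, and 4.72% higher in PAAD. In the other lines 0 were called in the standard fit. With the replicate block 3 were lower in PAAD and 1 in COAD. That fit called 1908 of 17280 genes lower in PAAD and 1060 of 17659 in COAD. Trend removal gave 2 lower in PAAD and 1 in PRAD. Of 10 regulators of mitochondrial biogenesis, PPARGC1A rose by 0.55 and PPRC1 by 0.24 in TNBC, and PPARGC1B rose by 0.27 in PAAD. None was lower in the standard fit of any line. The replicate block gave 3 lower in PAAD (GABPA, GABPB1 and TFAM), 2 in COAD and 1 in TNBC (ESRRA). Trend removal gave 2 lower in PRAD (PPRC1 and TFAM) and 1 each in COAD (PPRC1), PAAD (GABPB1) and TNBC (ESRRA). Set beside these were 5 genes for other routes of electrons to ubiquinone, or for the NADPH-forming transhydrogenase. Of them, ETFDH rose by 0.23, NNT rose by 0.16 and SQOR fell by 0.32 in TNBC. Over all genes, the block called 3054 of 17352 lower in TNBC. Trend removal called 10.5% lower in PRAD, 13.5% in TNBC, 397 of 17659 in COAD and 1255 of 17280 in PAAD.

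Ribosomal protein genes were counted as well. In TNBC 35 of 83 tested cytosolic ribosomal protein genes fell and 1 rose (median -0.12), and 21 of 78 mitochondrial ribosomal protein genes fell and 1 rose (median -0.12). Over all genes 11.3% were called lower and 9.65% higher. With the replicate block 57 and 37 were lower, against 3054 of 17352 genes. In PAAD these counts were 8 of 82 and 2 of 78 lower (3.62% of all genes), and 60 and 17 with the block (1908 of 17280). In COAD 76 of 82 cytosolic ribosomal protein genes had positive values with 1 called lower (192 of 17659 genes). The part of these shifts in the complex I result was not tested. Of the 3 TNBC markers, KRT17 fell by 0.67, EGFR rose by 0.43 and KRT5 was called lower only with the replicate block (adjusted p = 0.0125, edgeR), and their part was not tested either.

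Before treatment the lines already differed. Per exonic kilobase, NDUFS5 was the most abundant member in every line, at 159, 153 and 174 CPM per kb in COAD controls, 234 ± 14.3 in PAAD, 207 ± 4.12 in TNBC and 77.7 ± 0.503 in PRAD (SD, n = 3), the last being near the cap on counts per base. NDUFA1 followed in COAD (121 ± 3.89 CPM per kb) and PAAD (163 ± 7.98), and NDUFB7 in TNBC (140 ± 12.6), where NDUFA1 stood at 90.3 ± 3.08. The medians over the 37 subunits were 17.4 CPM per kb in COAD, 16.9 in PAAD and 20.04 in TNBC.

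Between control libraries of TNBC and COAD, 37 of 39 members differed (82.8% of all genes), 17 higher and 20 lower in TNBC. NDUFB5 was 2.48-fold higher in TNBC, whereas NDUFB11 was 3.57-fold, NDUFA8 2.46-fold and NDUFV1 2.06-fold lower. Between TNBC and PAAD, 12 were higher and 20 lower (77.1% of all genes called), and between PAAD and COAD 13 were higher and 14 lower (78.6%). NDUFA4L2 was 20.3-fold higher in TNBC than in COAD and 14.4-fold higher than in PAAD.

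Some members cannot be read with confidence in these counts. NDUFV2 held 1012 counts over all libraries, against 14889 on its processed pseudogene NDUFV2P1, and NDUFA7 held 297 counts. Pseudogenes held counts equal to 18.6% of those of NDUFA4 and 9.69% of those of NDUFB4. In all, 22 members share exonic bases with another gene, 10 of them over 20% of their length, the highest shares among subunits being those of NDUFS7 (49.1%), NDUFB8 (48.5%), NDUFB11 (44.9%) and NDUFA1 (44.5%).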

How the data were processed

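Per the labels and the header of the count tables, the authors aligned the reads to hg38 with STAR, removed duplicates and counted reads on exons with featureCounts 2.0.3; the submitters' processing notes also name DESeq2. The deposited values are whole counts per gene without normalization, for 58051 genes. Counting ignored the strand, although the library kit keeps it, and reads on more than 1 gene were dropped, so members with shared exons are uncertain. Paired-end counting was switched on for the table of COAD, PAAD and TNBC but not for that of PRAD, so levels in PRAD were not compared with the other lines. Symbols and gene types came from GENCODE, 56948 of 58051 identifiers matched, and 0 sample columns were left unused.

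Each cell line was tested alone in R 4.3.3 with the robust quasi-likelihood F-test of edgeR 4.0.16 (two-sided, filterByExpr, TMM, Benjamini-Hochberg adjustment over all genes tested). An adjusted p under 0.05 was called, with no minimum fold. Levels are TMM-scaled counts relative to a common library size (CPM), and standard errors are the log2 fold change over the square root of F. Differences in response between lines were tested in a fit of all 24 libraries, and untreated lines in a fit of 9 control libraries. The fits of the Ocoxin response were tested on simulated data, with planted changes larger than those called among the members. The recovery of changes of the size seen here was not tested. Alternatives were DESeq2 1.42.0, its size factors in edgeR, other filters, protein-coding genes only, a stricter threshold, a minimum fold change of 1.5 (untreated lines), the replicate number as a block, removal of a trend with exonic length and GC content (splines with 5 degrees of freedom), and each library left out in turn. The trend fit includes a constant for each library and so also rescales each library. A correction of PRAD counts for reads sharing a start was chosen after seeing the data.

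The members and the lists set beside them were chosen with earlier results of these data known. By the rule every member is named, in each line called members are given with values, at most 6 up and 6 down, with the core subunits in every line and up to 3 called genes per other list; members lost in fits without 1 library, and those called only with the replicate block, were named after their values were seen. Some genes are not reported here by name and enter only counts, sums and medians. Whether replicate numbers pair the libraries was decided from the deviations of same-numbered control and Ocoxin libraries from their group means, over genes with a mean of at least 10 CPM. These correlated at 0.405, 0.314 and 0.616 in PAAD, at 0.292, 0.176 and 0.603 in PRAD and at 0.285, 0.321 and 0.63 in TNBC, all above the limit for pairing, and at 0.403, 0.0865 and 0.503 in COAD, where 1 pair was below it. Libraries numbered 1 and 2 also correlated across numbers, at 0.132 to 0.347 in PAAD, PRAD and TNBC. In TNBC control 2 correlated more with Ocoxin 1 (0.347) than with Ocoxin 2 (0.321), so the values do not tell these 2 numbers apart there. The standard fit carries no block because the study's methods name none, and fits with the block are given as alternatives. Total counts per library ranged from 25160757 to 39009959 outside PRAD and from 9063968 to 9520969 in PRAD, and counting error is smallest for the most abundant members.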

Additional observations from a re-analysis of the deposited data

Results flagged for a closer look

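In 7 cases the Ocoxin response of a member differed between 2 cell lines by edgeR's quasi-likelihood test of the difference itself. The TNBC response lay below the COAD response, on the log2 scale, by -0.4172 for NDUFB3 (adjusted p = 0.00386), -0.4097 for NDUFA1 (adjusted p = 0.000794), -0.2975 for NDUFS6 (adjusted p = 0.0357), -0.2897 for NDUFB6 (adjusted p = 0.0399), -0.285 for NDUFA8 (adjusted p = 0.0496) and -0.2846 for NDUFA4 (adjusted p = 0.00630). The PAAD response lay below the COAD response by -0.2447 for NDUFA4 (adjusted p = 0.0331). Both sets of differences share the 6 COAD libraries, and total counts in COAD were lower with Ocoxin (25160757 to 29670036) than in controls (31265452 to 34397801). The part of depth in these differences was not tested, and dose and cell line cannot be told apart where the dilutions differ, as between PAAD and COAD.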

How the results depend on the processing

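The members called in TNBC numbered 8 at an adjusted p under 0.01, where 771 of 17352 genes were higher and 1000 lower. The count stayed within 1.5 times of 15 under the remaining alternatives. In PAAD the count of 1 became 12 with the replicate block, 2 after removal of the length and GC trend, 7 with both, and 0 at an adjusted p under 0.01. In PRAD the count of 0 became 1 with DESeq2, without a filter on low counts or with the replicate block. It became 3 after removal of the trend and 10 with trend removal and block. Over all genes, trend removal called 2396 of 17280 in PAAD and 2475 of 17070 in PRAD. The share of all genes called with trend removal and block together is not given here. In COAD, where the numbers did not pair the libraries, the replicate block left the count at 0, while calls over all genes went from 451 to 1925, among them 30 cytosolic ribosomal protein genes called higher, against 0 without it. Removal of the length and GC trend turned 259 higher and 192 lower genes in COAD into 252 and 397. For differences in response, the replicate block gave 2 members between TNBC and PAAD, 16 between TNBC and COAD, 8 between PAAD and COAD and 1 between TNBC and PRAD. DESeq2 gave 12 between TNBC and COAD, 6 between PAAD and COAD and 1 between TNBC and PRAD. Over all genes it called 2389 of 16688, 1531 of 15914 and 1431 of 15141 in these pairs. Between PAAD and COAD there were 3 with DESeq2 size factors and 0 without a filter on low counts. A minimum fold change of 1.5 left 15 of 39 members between untreated TNBC and PAAD, 19 between TNBC and COAD and 7 between PAAD and COAD. Over all genes it left 11562, 13292 and 11977 of 19930 in these pairs. The cause of these shifts was not tested, other than that a stricter threshold or a minimum fold is made to call fewer.

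With each library left out in turn, the counts ranged from 0 to 0 in COAD and PRAD, from 0 to 2 in PAAD and from 10 to 13 in TNBC. For differences in response they ranged from 3 to 12 (TNBC and COAD), 0 to 4 (PAAD and COAD), 0 to 1 (TNBC and PRAD) and 0 to 0 (the other pairs). For untreated lines they ranged from 36 to 37 (TNBC and COAD), 31 to 32 (TNBC and PAAD) and 25 to 27 (PAAD and COAD). Summed levels kept their direction under other scalings, with TNBC between -8.23% and -6.46%. Called genes taken singly kept their direction in all fits. The 3 libraries per group limit the precision. Members at a few counts per library, and PRAD with its lower depth, give the least precise values.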
